A study of Solanum lycopersicum with 30 samples.

Results

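The 150 genes described here are those whose RNA level in tomato (Solanum lycopersicum) leaves was most raised by drought in vein and in intervein tissue alike. They were chosen from 34429 genes with Solyc identifiers, the gene models of tomato. For each gene, the log2 ratio of the mean level in droughted plants to the mean level in watered plants at the second of 3 time points (T1) was taken in each tissue, after adding 1 to each mean. Genes were ranked by the smaller of the vein and intervein ratios, and the first 150 were kept. A level is given throughout as CPM, the counts of a gene divided by the total count of its library and multiplied by 1e6. The drought and watered values at T1 chose the genes, so they are described without a test. The levels at the first time point (T0, watered plants only) and at the third (T2, after rewatering) had no part in the choice.

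The series held 30 libraries in 10 groups of 3. Vein-enriched and intervein pieces were dissected from leaf 4 of plants grown in pots under cycles of 16 h light and 8 h dark. The T1 drought plants had gone 6 days without water and were sampled 29 days after sowing, and the T2 recovered plants had the same drought followed by rewatering. The labels give the T2 sampling once as 3 days after watering resumed and once as following waterings on the day of T1 and the next day, so the age at T2 is uncertain. The watered groups were T0 plants, 25 days after sowing, T1 plants, 29 days after sowing, and T2 plants, which were watered throughout. With 6 days without water by day 29, the T0 age of 25 days may not precede the last watering of the drought plants. The labels name no cultivar and no transgene. The labels tell of 3 plants for each watering at T1 and at T2 with both tissues collected, but no label ties a vein library to an intervein library of the same plant. The p-values below set a difference between groups against the spread between libraries within groups. In the main fit this spread was estimated over all 30 libraries.

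Plants that lose water accumulate abscisic acid, a hormone that closes stomata and switches on a large set of protective genes. Among the best known products of these genes are the late embryogenesis abundant (LEA) proteins, very hydrophilic proteins that were first described in drying seeds and that include the dehydrins. Lipid transfer proteins bind lipids, and many are made in the epidermis, where the waxy cuticle limits water loss. Veins hold the xylem and phloem, and intervein tissue is mostly photosynthetic mesophyll.

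Total counts per library lay between 2718799 and 13641845, and between 13740 and 20143 genes of any identifier had at least 1 count. No vein or intervein marker gene could be named from the identifiers, so tissue was checked with a score, the mean log2 level of 696 genes higher in vein minus that of 849 genes higher in intervein at T0, with the 150 genes left out. The score lay between 0.698 and 2.06 in 13 of the 15 libraries labelled vein, and between -4.12 and -2.43 in 14 of the 15 labelled intervein. The T0 libraries are among these, but the score genes were chosen from them by their labels. For the T0 libraries the score is therefore no check of tissue. It was -3.13 in the library labelled vein T2 recovered 2, 0.49 in the library labelled intervein T2 recovered 1 and -0.55 in the library labelled vein T1 drought 2. These 3 libraries went against their labels or stood apart from their tissue, and the main counts and calls that rest on them are given with and without them. In pieces of whole tissue, fewer cells of a type and less RNA per cell cannot be told apart.

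The files pair each Solyc identifier with a UniProt protein entry but give no gene name or description. All 150 genes had an entry. The accession had 6 characters for 10 of the 150 genes (6.67%), against 2907 of all 34429 (8.44%), and 10 characters for the other 140. From the entries, 3 genes could be named with certainty. Solyc02g084850 (P22240) is the dehydrin TAS14, known from tomato as induced by salt stress and abscisic acid. Solyc10g078770 (Q00747) is the LEA protein LE25, and Solyc10g075090 (P93224) is the non-specific lipid-transfer protein LE16, both described in tomato leaves as induced by drought and abscisic acid. The other 147 genes are called by identifier and entry only, so lists of LEA proteins, hormone genes or transcription factors could not be counted.

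By the chromosome number in their identifiers, 26 of the genes lie on chromosome 3, which is 0.777% of its gene models, and 2 lie on chromosome 5, which is 0.0798%. Chromosome 6 held 18, chromosomes 1 and 4 held 17 each, and chromosome 2 held 14. Pairs next to each other in the gene order were Solyc02g077970 with Solyc02g077980, Solyc07g065980 with Solyc07g065985, Solyc10g078760 with LE25, and Solyc12g017240 with Solyc12g017250. Whether these neighbours are near-identical copies was not checked. Reads of such copies could be split between them by the counting, so values within these pairs stay uncertain.

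Most of these genes were at moderate levels under drought and low in watered plants at T1. A mean over 10 CPM was reached by 139 of the 150 in T1 drought vein, against 34 in T1 watered vein, and by 137 in T1 drought intervein, against 24 in T1 watered intervein. A mean under 1 CPM was found for 51 genes in T1 watered vein and for 69 in T1 watered intervein. The median gene had a mean of 84.3 CPM in T1 drought vein, against 2.97 CPM in T1 watered vein, and 65.5 CPM in T1 drought intervein, against 1.27 CPM in T1 watered intervein. Together the 150 genes took 4.22 ± 0.17% of the counts in T1 drought vein and 0.14 ± 0.073% in T1 watered vein (SD, n = 3 each). In intervein they took 3.13 ± 2.13% in T1 drought and 0.085 ± 0.014% in T1 watered libraries (SD, n = 3 each). The 3 drought intervein libraries differed among themselves, with 0.852%, 3.46% and 5.08%.

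**Figure D1:**
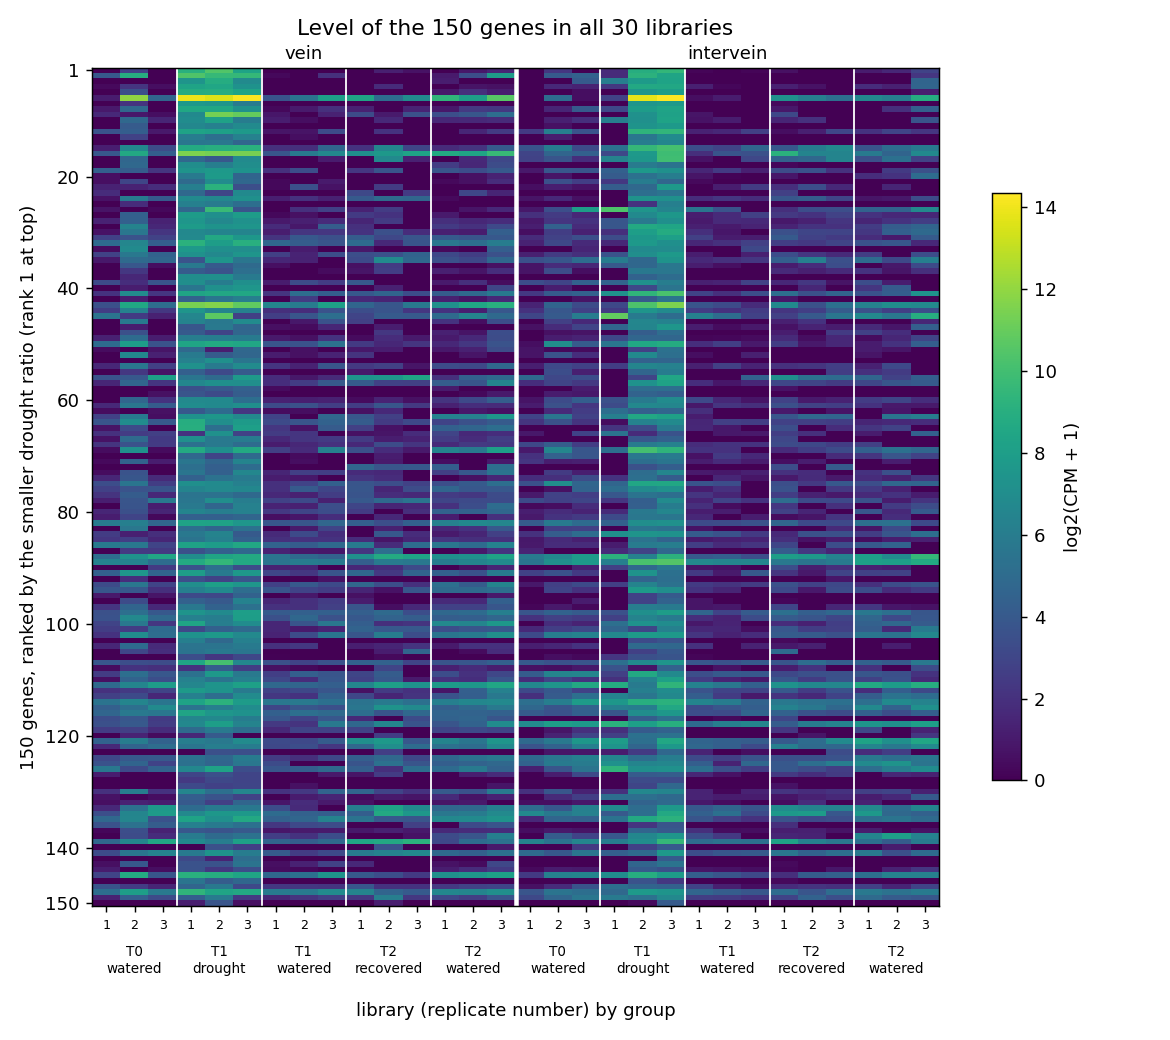
Level of each of the 150 genes (rows, in rank order from 1 at the top) in each of the 30 libraries (columns, grouped by tissue, time point and watering), as log2(CPM + 1). The T1 drought columns are bright in vein replicates 1, 2 and 3 and in intervein replicates 2 and 3, while intervein replicate 1 is dark for most genes and vein T0 replicate 2 is brighter than the other T0 libraries.

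The dehydrin TAS14 carried the largest share of these counts. Its level was 15475, 12500 and 19661 CPM in T1 drought vein, against 12.2, 44.3 and 264 CPM in T1 watered vein. In intervein it was 6.24, 14428 and 20753 CPM under drought, against 0.466, 1.13 and 0 CPM when watered. All drought libraries lay above all watered ones in both tissues, yet the first drought intervein library was close to the watered level. TAS14 alone made up between 28.7% and 46.1% of the summed counts of the 150 genes in the drought vein libraries.

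LE25 ranked first of the 150. It had 541, 1387 and 313 CPM in T1 drought vein and 0 counts in every T1 watered vein library. In intervein it had 2.46, 482 and 718 CPM under drought, against 0.155, 0 and 0.158 CPM when watered. LE25 was therefore close to absent from watered leaves at T1 and again low in the first drought intervein library. LE16 had 2743, 3285 and 1866 CPM in T1 drought vein, against 92.8, 60.4 and 282 CPM in T1 watered vein. In intervein LE16 had 7.75, 1313 and 2903 CPM under drought, against 12.4, 8.62 and 2.36 CPM when watered. Like TAS14 and unlike LE25, LE16 was detected in every T1 watered vein library, and its intervein groups overlapped through the same library.

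The rule value, the smaller of the log2 ratios of vein and intervein, ran from 8.51 for LE25 to 2.56 for the last gene, with a median of 3.37. The single-tissue ratio reached 9.77 in vein (Solyc09g082330, A0A3Q7I6G7) and 12.90 in intervein (TAS14). After LE25, the genes with the largest rule values were Solyc08g077900 (A0A3Q7HRW5), Solyc03g019820 (K4BEV4), Solyc03g116390 (E1AZA3) and Solyc06g072130 (A0A3Q7HUU2), with 8.29, 7.67, 7.43 and 7.20. TAS14 followed with 7.20, and then Solyc03g025810 (A0A3Q7FHG5) with 7.01, Solyc01g057000 (A0A3Q7EEE3) with 6.94, Solyc09g082330 with 6.89, Solyc01g109920 (K4B3K5) with 6.72, Solyc02g077970 (A0A3Q7F5P8) with 6.61 and Solyc05g024260 (A0A3Q7GI40) with 5.99. Just inside the threshold were Solyc04g081900 (2.57), Solyc01g109120 (2.56) and Solyc04g017670 (2.56), and just outside it were Solyc07g017610 (2.55), Solyc03g123540 (2.54) and Solyc02g070060 (2.54). The edge of the list is therefore a step in a continuous ranking.

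In vein, 142 of the 150 genes had all 3 drought libraries above all 3 watered ones, where 9.83% of all genes with counts did. In intervein the count was 72 of 150, where 8.7% of all genes did, and in both tissues together it was 67, where 2.67% did. Since the rule used this contrast, these counts only describe the choice. Without the first drought intervein library the intervein count was 144, where 22.6% of all genes did. Without vein T1 drought 2, whose tissue score was low, the vein count was again 142, where 15% of all genes did. Without both libraries the count in both tissues was 137, where 8.36% of all genes did.

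That library, intervein T1 drought 1, stood apart for most of the 150 genes. Their median level was 3.88 CPM in it, against 59.8 and 93.9 CPM in the other two drought intervein libraries. It had 0 counts for 59 of the genes, and for 75 it was at or below the highest watered library. It also had the fewest detected genes of any identifier among all 30 libraries, 13740. Its part in the intervein values was not tested beyond leaving it out, which kept 137 of the 150 genes on the list. Leaving out vein T1 drought 2, whose tissue score was low, kept 135.

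A smaller number of genes did not follow this pattern. For 22 of the 150, intervein drought 1 was at or above the lower of the other two drought libraries, and for 9 it was the highest. Solyc06g007180 (A0A3Q7GRS5) had 1271, 179 and 88.8 CPM in drought intervein, against 45.8, 11.6 and 0 CPM in watered intervein. In vein it had 25.3, 849 and 12.03 CPM under drought, against 0, 3.02 and 5.93 CPM when watered. Solyc11g044910 (A0A3Q7IX94) had 1902, 60.3 and 32.5 CPM in drought intervein, against 74.4, 32.9 and 5.83 CPM in watered intervein, and 94.8, 1664 and 5.56 CPM in drought vein, against 5.32, 12.5 and 35.8 CPM in watered vein. Both genes were thus high in 1 drought library of each tissue, and for Solyc11g044910 the groups overlapped in both tissues. Of the 9 genes highest in intervein drought 1, 7 were also highest in vein drought 2, the vein drought library whose tissue score was low. For the 22 genes the count was 12. No share of the 150 or of all genes stands beside these counts, and their cause was not tested. These genes were picked out after their values were seen.

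**Figure D2:**
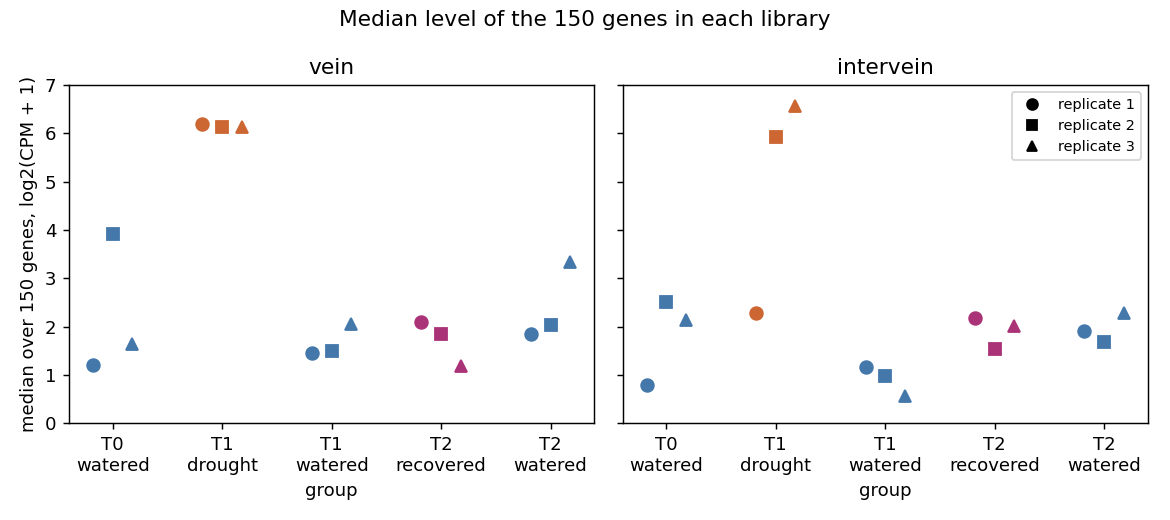
Median level of the 150 genes in each library, as log2(CPM + 1), for vein (left panel) and intervein (right panel); marker shape gives the replicate number and the groups stand along the axis. The 3 drought vein libraries lie together between 6.12 and 6.19, intervein drought 1 lies at 2.29 beside 5.93 and 6.57, and vein T0 replicate 2 lies at 3.91 above the other T0 libraries.

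In the watered plants of T0, the genes were mostly low but not uniformly so. The median gene had a mean of 8.98 CPM in T0 vein and 3.50 CPM in T0 intervein. In T0 vein 72 of the 150 genes had a mean under 10% of their T1 drought mean, and 119 did without vein T0 2. In T0 intervein 99 did, and 110 without intervein T1 drought 1. All 3 drought libraries were above all T0 libraries for 115 genes in vein, where this held for 9.94% of all genes. The vein count was 123 without vein T1 drought 2, where 15.9% of all genes did, and 131 without vein T0 2, where 13.5% did. In intervein the count was 38, where 5.5% of all genes did, and 133 without intervein T1 drought 1, where 18.8% did. The T0 mean was above the T1 watered mean for 114 genes in vein and for 115 in intervein, but for 61 in vein without vein T0 2. The T1 drought and T1 watered levels were both part of the rule, so all of these counts describe the choice and nothing is read from them against the shares of all genes.

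The T0 vein libraries differed widely from each other. The median level of the 150 genes was 1.29, 14.1 and 2.11 CPM in vein T0 replicates 1, 2 and 3. Vein T0 2 was the highest of its group for 98 of the 135 genes that had counts there, where it was the highest for 22.1% of all genes. It exceeded each of the other T0 vein libraries more than 10 times for 44 of the 123 genes above 1 CPM in it. For 25 genes it reached the lowest drought vein library. Vein T0 1 and 3 did so for 6 and 17 genes, and single T2 vein libraries for between 13 and 36. No share of all genes stands beside these counts or beside the 44.

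TAS14, the dehydrin, shows the size of this difference. It had 1.09, 4051 and 24.2 CPM in the T0 vein libraries, and 0, 32.1 and 0.459 CPM in the T0 intervein libraries. LE16 had 10.4, 374 and 33.4 CPM in T0 vein, and 1.73, 23.7 and 8.60 CPM in T0 intervein. LE25 had 0, 5.72 and 0 CPM in T0 vein, and 0, 3.88 and 0 CPM in T0 intervein. In all 3 named genes replicate 2 was the highest T0 library of its tissue. Over the 127 genes with counts in T0 intervein, replicate 2 was the highest for 61, where it was for 12.2% of all genes. The replicate number does not say that vein and intervein libraries came from the same plant.

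The same unevenness was seen in watered leaves at T2. The 150 genes had medians of 2.61, 3.08 and 9.10 CPM in the T2 watered vein libraries. Vein T2 watered 3 was the highest of its group for 101 of 130 genes with counts, where it was for 34.3% of all genes. Intervein T2 watered 3 was the highest for 55 of 118 genes, where it was for 24.9% of all genes. Among the T1 watered vein libraries, replicate 3 was the highest for 66 of 123 genes, where it was for 26.4% of all genes. Watered libraries of 1 group thus differed in the level of these genes at each time point, and which libraries were high was seen from the data and not from the labels.

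At T0 the genes were compared between vein and intervein in 1 fit over all 30 libraries (edgeR's quasi-likelihood test, Benjamini-Hochberg adjustment over 19431 tested rows, calls at an adjusted p under 0.05). All 150 genes passed the filter on low counts, many of them only through their T1 drought libraries. The test called 8 of the 150, 4 higher and 4 lower in vein, which is 5.33% where 7.55% of all tested genes were called. The higher calls came to 2.86% of all genes and the lower calls to 4.7%. An unadjusted p under 0.05 was found for 32 of the 150, where it was for 22.4% of all genes, and DESeq2 called 25, where it called 12.2% of 23631 genes with a p. A filter on the 6 T0 libraries alone kept 103 of the 150 genes, so the share over 150 includes genes that a filter on T0 would drop. In a fit of those 6 libraries, 6 of the 103 were called, or 5.83%, where 9.21% of the 16845 genes kept were. Of the 8 genes called in the fit of all libraries, Solyc06g007180 and Solyc07g062530 were not among the 103. By libraries, 14 genes had all T0 vein values above all T0 intervein values, where 16% of all genes did, and 4 had them below, where 8.05% did.

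Of the 4 genes higher in vein, 3 had 0 counts in every T0 intervein library. Solyc04g014600 (A0A3Q7FXR6) had 11.4, 40.6 and 17.7 CPM in T0 vein, at least 191-fold above the level of 3 counts over the T0 intervein group (edgeR adjusted p = 0.0348), and at least 120-fold without vein T0 2. Solyc07g062530 (A0A3Q7HGM6) had 0.595, 30.0 and 4.33 CPM in T0 vein, at least 95.7-fold above that floor (edgeR adjusted p = 0.0353), and at least 20.3-fold without vein T0 2. Solyc03g116530 (A0A3Q7FTK7) had 9.43, 13.9 and 4.44 CPM in T0 vein, at least 76.2-fold above it (edgeR adjusted p = 0.0361), and at least 48.4-fold without intervein T0 2. These genes were thus seen at T0 in vein libraries alone, and floors cover counting error only. Solyc02g083860 (A0A3Q7F6V7) had 11.3, 106 and 27.3 CPM in T0 vein and 3.17, 5.55 and 4.70 CPM in T0 intervein, a log2 fold change of 3.09 (SE 0.88, edgeR adjusted p = 0.0336). Its log2 fold change was 1.68 without vein T0 2 (edgeR adjusted p = 0.28).

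All 3 of the genes at 0 in T0 intervein also had 0 counts in the first drought intervein library, and in drought intervein 2 and 3 they had between 3.69 and 37.4 CPM. In drought vein the same 3 genes had between 38.8 and 148.6 CPM. In the T2 recovered intervein group all 3 were found in replicate 1 alone, with 2.84, 7.43 and 7.06 CPM, the library whose tissue score was near vein.

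Of the 4 genes lower in vein at T0, Solyc07g055560 (A0A3Q7HG83) had 0 counts in every T0 vein library and 3.17, 21.2 and 13.2 CPM in T0 intervein, at least 107-fold above the floor of 3 counts over the T0 vein group (edgeR adjusted p = 0.0275). Its bound was at least 64.6-fold without vein T0 1. Solyc09g092480 (A0A3Q7IA70) had 10.3, 15.3 and 4.998 CPM in T0 vein and 106, 252 and 217 CPM in T0 intervein, a log2 fold change of -4.59 (SE 1.14, edgeR adjusted p = 0.0174). Solyc01g067010 (A0A3Q7EG27) had 7.64, 14.4 and 15.3 CPM in T0 vein and 28.4, 50.1 and 72.5 CPM in T0 intervein, a log2 fold change of -2.29 (SE 0.53, edgeR adjusted p = 0.0128). For these 3 genes no vein library reached an intervein one. Solyc06g007180 had 0.695, 0 and 0.222 CPM in T0 vein and 0.864, 9.88 and 247 CPM in T0 intervein, a log2 fold change of -7.90 (SE 2.38, edgeR adjusted p = 0.0430), and its intervein value rested mainly on replicate 3.

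**Figure D3:**
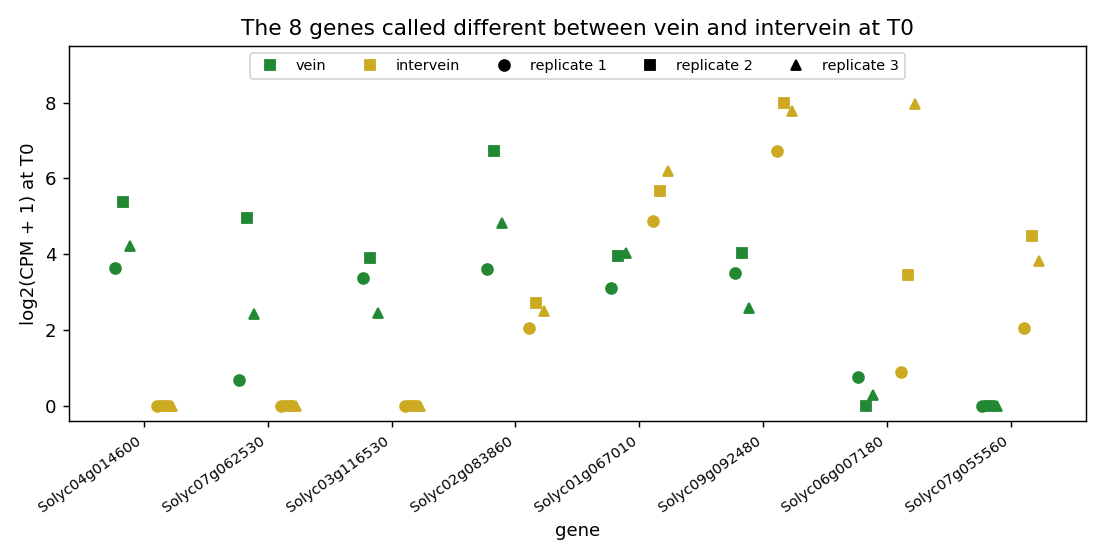
Level of the 8 genes called different between vein and intervein at T0, as log2(CPM + 1) in each T0 library; green markers are vein and yellow markers intervein, and the shape gives the replicate. The 4 genes on the left are higher in vein, 3 of them at 0 in every intervein library, and the 4 on the right are higher in intervein.

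Leaving out any 1 T0 library gave between 0 and 3 calls among the 150 genes, while the calls over all genes came to between 371 and 1376, against 1468 with every library. A fit of the 6 T0 libraries with the replicate number as a block called 0 of the 150 and 0 of all 16845 genes. The median log2 fold change of vein over intervein was 0.61 over the 150 genes and 0.08 over all tested genes, but it was -0.67 over the 150 genes without vein T0 2.

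After rewatering, most of the genes had come down from their drought level. The T2 recovered mean was under 10% of the T1 drought mean for 106 of the 150 genes in vein and for 103 in intervein. The counts were 114 in vein and 111 in intervein without the recovered libraries that went against their tissue label, 104 in vein without vein T1 drought 2 and 111 in intervein without intervein T1 drought 1. All drought libraries lay above all T2 recovered ones for 122 genes in vein, where 12.8% of all genes did, and for 48 in intervein, where 8.79% did. Without the recovered libraries that went against their tissue label the counts were 131, where 15.3% of all genes did, and 58, where 15.9% did. Without vein T1 drought 2 the vein count was 125, where 19.3% of all genes did, and without intervein T1 drought 1 the intervein count was 127, where 21.7% did. The drought libraries chose the genes, so these counts are a description. The median gene had a mean of 3.40 CPM in T2 recovered vein, against 5.81 CPM in T2 watered vein, and 3.01 CPM in T2 recovered intervein, against 4.27 CPM in T2 watered intervein. The 150 genes took 0.334 ± 0.081% of the counts in T2 recovered vein and 0.499 ± 0.26% in T2 watered vein (SD, n = 3 each). In intervein they took 0.226 ± 0.077% in T2 recovered and 0.411 ± 0.153% in T2 watered libraries (SD, n = 3 each). The recovered and watered ranges overlapped in each tissue, but only through vein T2 recovered 2 (0.421%) and intervein T2 recovered 1 (0.315%). These are the recovered libraries that went against their tissue label. The other recovered vein libraries had 0.263% and 0.316%, against at least 0.344% in T2 watered vein. The other recovered intervein libraries had 0.188% and 0.176%, against at least 0.2955% in T2 watered intervein. This was seen from the values.

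The named protective genes followed this course. TAS14 (Solyc02g084850) had 328, 32.3 and 117 CPM in T2 recovered vein, against 668, 262 and 1542 CPM in T2 watered vein, and 144, 68.1 and 36.5 CPM in T2 recovered intervein, against 96.7, 70.3 and 467 CPM in T2 watered intervein. LE25 (Solyc10g078770) had at most 1.37 CPM in any T2 recovered library and at most 6.53 CPM in any T2 watered library. Neither gene was called in either tissue, with edgeR adjusted p of 0.621 and 0.784 for TAS14 and 0.993 and 0.319 for LE25 in vein and intervein.

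LE16 (Solyc10g075090), the lipid transfer protein, had 24.4, 13.3 and 52.2 CPM in T2 recovered vein, against 143, 352 and 537 CPM in T2 watered vein. In intervein it had 113, 10.7 and 38.9 CPM in T2 recovered, against 77.6, 131 and 106 CPM in T2 watered libraries. The vein groups did not overlap and the intervein groups did. The intervein overlap came from recovered replicate 1 alone (113 CPM), the library whose tissue score was near vein. The other recovered intervein libraries lay below every T2 watered intervein library. The log2 fold change in vein was -3.19 (SE 1.31, edgeR adjusted p = 0.195), which missed the threshold.

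**Figure D4:**
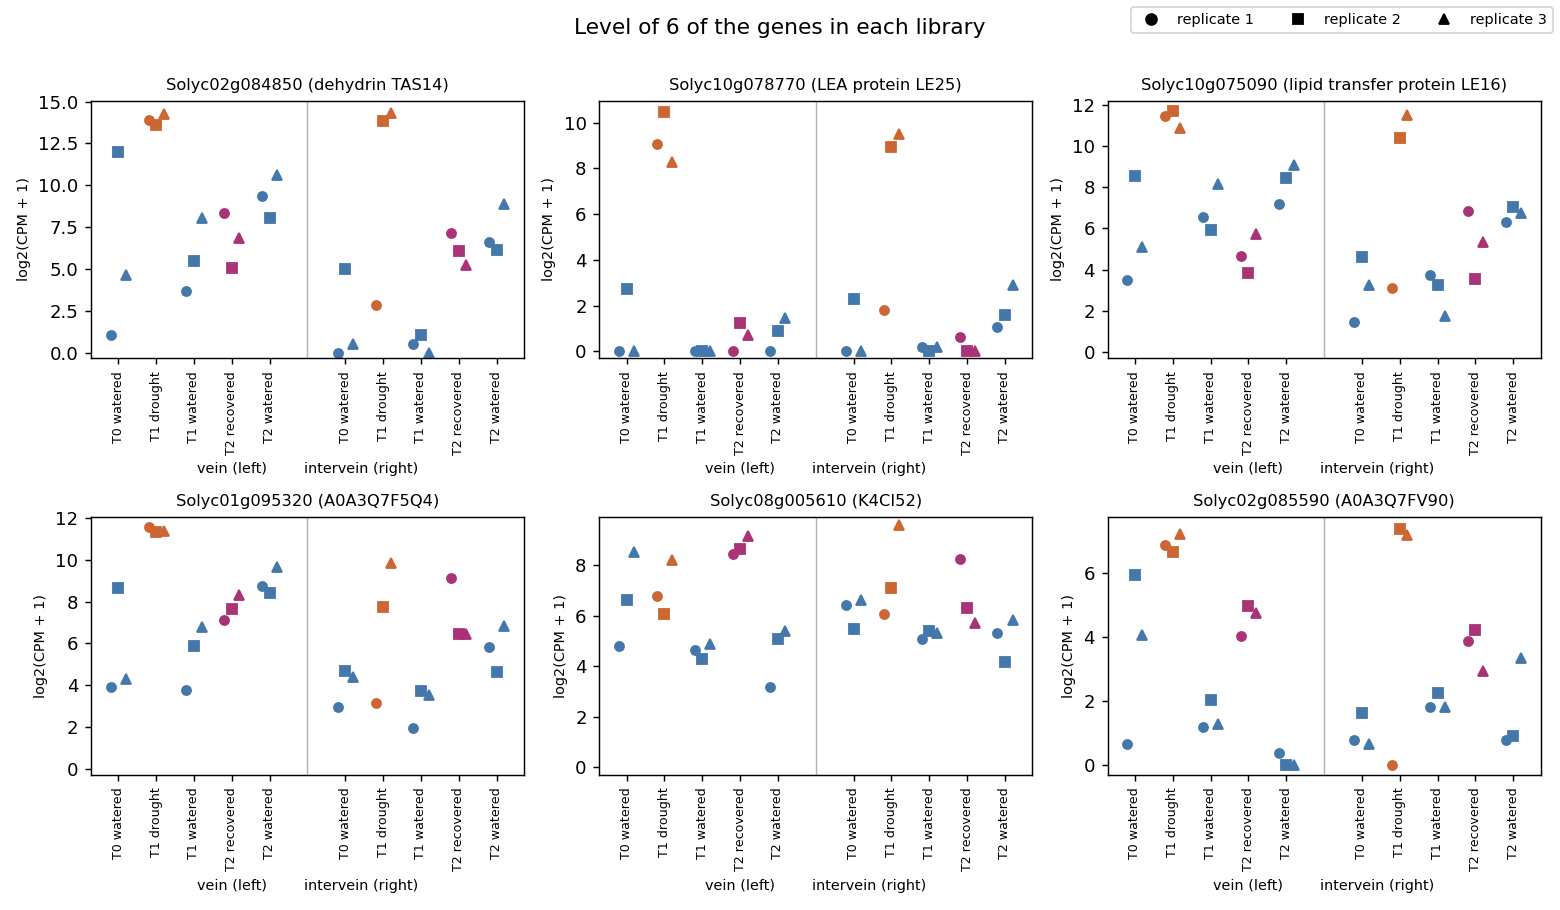
Level of 6 of the genes in each of the 30 libraries, as log2(CPM + 1), with vein to the left and intervein to the right of the line in each panel; orange is drought, purple is recovered, blue is watered, and the shape gives the replicate. TAS14, LE25 and LE16 are low in intervein drought replicate 1, and Solyc08g005610 and Solyc02g085590 are higher in T2 recovered vein than in T2 watered vein.

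Recovered plants were set against plants of the same time point that had been watered throughout. In vein, edgeR's test called 2 of the 150 genes, both higher in recovered plants, which is 1.33% where 1.57% of all tested genes were called, 1.38% higher and 0.19% lower. In intervein it called 0, where 0.772% of all tested genes were called, 0.566% higher and 0.206% lower. At an unadjusted p under 0.05 the counts were 29 genes in vein, or 19.3%, where 17.9% of all genes were found, and 21 in intervein, or 14%, where 17.4% were. DESeq2 called 14 in vein, 4 higher and 10 lower, which is 9.33% where it called 7.25% of 23631 genes. In intervein it also called 14, 6 higher and 8 lower, where it called 5.85% of all genes. A filter on the 6 compared libraries alone kept 100 of the 150 genes in vein and 102 in intervein, so the shares over 150 include genes that a filter on T2 would drop. Fits of those 6 libraries called 0 of these and 0% of all genes kept in either tissue (edgeR), with 26 and 21 of the 150 at an unadjusted p under 0.05.

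Solyc08g005610 (K4CI52) had 344, 398 and 567 CPM in T2 recovered vein, against 8.12, 32.9 and 41.3 CPM in T2 watered vein. The lowest recovered library was thus well above the highest watered one, and the log2 fold change was 4.38 (SE 0.96, edgeR adjusted p = 0.0283). Its mean in T2 recovered vein was also above its mean in T1 drought vein, where it had 109, 65.8 and 288 CPM. In T2 intervein it had 304, 78.4 and 51.4 CPM in recovered plants, against 38.6, 16.9 and 56.4 CPM in watered plants, and these groups overlapped.

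Solyc02g085590 (A0A3Q7FV90) had 15.5, 30.0 and 25.6 CPM in T2 recovered vein, against 0.307, 0 and 0 CPM in T2 watered vein. The counts behind these values were 521 in the recovered and 2 in the watered group, a ratio of 252 with an exact 95% counting interval of 69.5 to 2090 (edgeR adjusted p = 0.0339). In T0 vein it had 0.595, 59.2 and 15.7 CPM, and the last 2 of these watered libraries were above the lowest T2 recovered one. In T2 intervein it had 13.5, 17.5 and 6.73 CPM in recovered plants, against 0.736, 0.880 and 9.04 CPM in watered plants, and these groups overlapped.

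The library labelled vein T2 recovered 2, whose tissue score was -3.13, was not the lowest or highest library for Solyc08g005610, and was the highest for Solyc02g085590. Without it neither gene was called, with edgeR adjusted p of 0.119 and 0.147, and 0 genes of the whole table were. The log2 fold changes were then 4.27 for Solyc08g005610 and 7.70 for Solyc02g085590, against 4.38 and 8.11 with every library. Leaving out any 1 of the 3 T2 watered vein libraries likewise left 0 calls among the 150 and in the whole table, so the loss of the calls was not particular to vein T2 recovered 2. Without vein T2 recovered 3 neither gene was called, with 14 calls in the whole table, and without vein T2 recovered 1 both were, among 1121. Over all the alternatives tried the adjusted p ranged from 2.31e-05 to 0.182 for Solyc08g005610 and from 4.35e-05 to 0.21 for Solyc02g085590, and both log2 fold changes kept their sign.

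**Figure D5:**
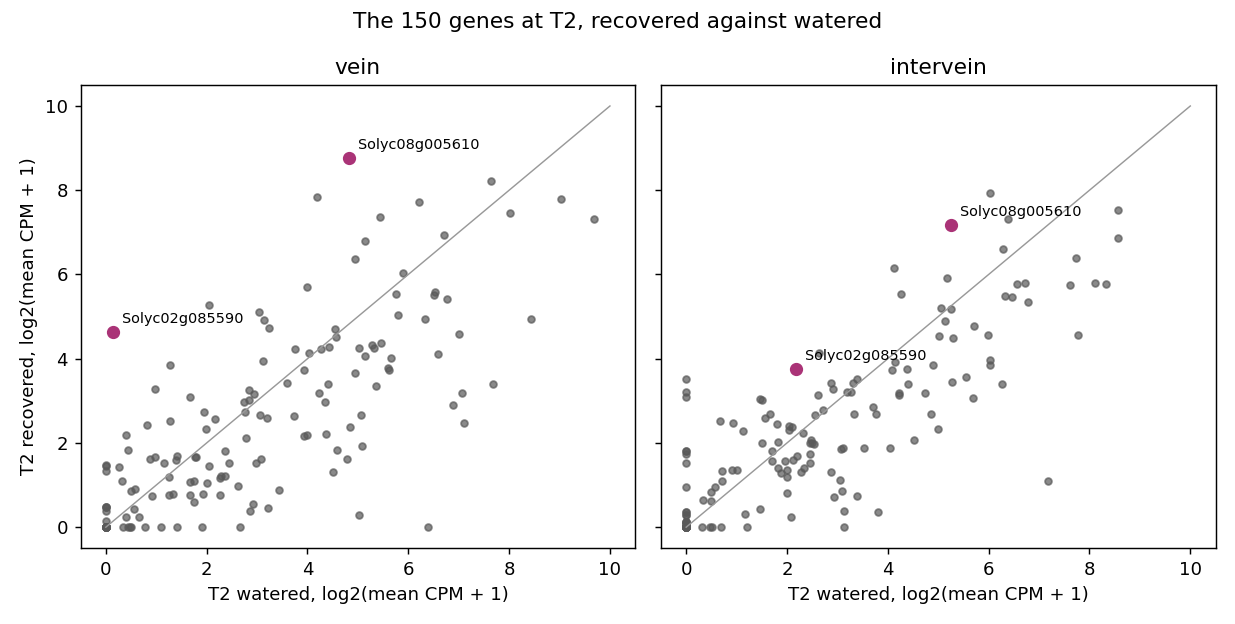
Mean level of each of the 150 genes in T2 recovered plants (vertical axis) against T2 watered plants (horizontal axis), as log2(mean CPM + 1), for vein (left) and intervein (right); the line marks equal levels. The 2 genes called higher in recovered vein are named and stand above the line in both panels, and most genes lie within a broad cloud around it.

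Groups whose libraries did not overlap at T2 were found in both directions. In vein, 9 of the 150 genes (6%) had every recovered library above every watered one, where 6.58% of all genes did, and 34 (22.7%) had every recovered library below, where 20.8% did. In intervein the counts were 6 (4%), where 6.03% of all genes did, and 21 (14%), where 11.9% did. Without vein T2 recovered 2, 10 genes in vein (6.67%) lay above, where 11% of all genes did, and 48 (32%) lay below, where 23.3% did. Without intervein T2 recovered 1, 7 genes in intervein (4.67%) lay above, where 8.54% of all genes did, and 27 (18%) lay below, where 21% did.

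In both tissues together, 2 genes (1.33%) had all recovered libraries above all watered ones, where 2.41% of all genes did, and 10 (6.67%) had them below, where 6.56% did. Without the libraries that went against their tissue label the counts were 2 (1.33%), where 3.92% of all genes did, and 16 (10.7%), where 11.2% did. With every library kept, no gene of the 150 was apart in opposite directions. The 2 higher genes were Solyc12g017240 (A0A3Q7JTV6) and Solyc07g053360 (A0A3Q7HC92). Solyc12g017240 had 169, 184 and 332 CPM in T2 recovered vein, against 2.91, 20.2 and 28.6 CPM in T2 watered vein, and 140, 39.0 and 30.9 CPM in T2 recovered intervein, against 24.3, 6.23 and 18.5 CPM in T2 watered intervein. Solyc07g053360 had 5.09, 13.3 and 4.19 CPM in T2 recovered vein, against 1.53, 2.64 and 2.35 CPM in T2 watered vein, and 10.4, 6.12 and 5.44 CPM in T2 recovered intervein, against 3.31, 0.953 and 1.00 CPM in T2 watered intervein. Neither reached the adjusted threshold, with edgeR adjusted p of 0.232 and 0.503 for Solyc12g017240 and 0.199 and 0.206 for Solyc07g053360 in vein and intervein.

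The 10 genes below in both tissues were Solyc06g067980, Solyc11g044910, Solyc01g096320, Solyc03g065250, Solyc04g009910, Solyc06g084760, Solyc11g056650, Solyc03g117800, Solyc03g096670 and Solyc04g081900. Solyc03g117800 (A0A3Q7FV82) had 0, 0 and 0.645 CPM in T2 recovered vein, against 8.58, 12.97 and 73.0 CPM in T2 watered vein. In intervein it had 1.83, 1.61 and 0 CPM in T2 recovered, against 88.3, 259 and 82.6 CPM in T2 watered libraries. Its edgeR adjusted p was 0.0626 in vein and 0.0535 in intervein, the lowest of the 150 genes in intervein. Solyc03g096670 (A0A3Q7GC83) had 14.9, 9.56 and 4.40 CPM in T2 recovered vein, against 143, 188 and 281 CPM in T2 watered vein (edgeR adjusted p = 0.0826), and 2.84, 17.3 and 20.04 CPM in T2 recovered intervein, against 35.7, 79.6 and 76.5 CPM in T2 watered intervein (edgeR adjusted p = 0.353). For these 10 genes the recovered plants were at lower levels than plants never droughted, but none passed the adjusted threshold. Their share of the 150, 6.67%, was close to the 6.56% of all genes, so nothing about the list is read from their number. They were listed after their values were seen.

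The difference between the tissues in the T2 response was tested directly. The test called 0 of the 150 genes and 0% of all genes (edgeR), with 14 of the 150 (9.33%) at an unadjusted p under 0.05, where 5.38% of all genes were. DESeq2 called 2 of the 150 (1.33%), where it called 0.347% of all genes. The lowest edgeR adjusted p over the 150 genes was 0.881. Leaving out the recovered libraries that went against their tissue label left 0 calls among the 150 genes here. It also left 0 among them in recovered against watered plants and in T2 recovered against T0, in either tissue. Of all genes, 0.578% were then called for recovered against watered intervein and 0.0653% for T2 recovered against T0 intervein. The share of all genes was 0% here and in both vein comparisons.

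The fitted median log2 fold change of recovered over watered plants at T2 was -0.03 in vein over the 150 genes, against 0.00 over all tested genes, and 0.00 in intervein, against 0.07. The fitted vein median of the 150 genes was -0.85 without vein T2 recovered 2, against -0.01 over all tested genes. The medians were also computed with bounds, in which a group with 0 counts for a gene was given the floor of 3 counts over the group and genes at or under this floor in both groups were dropped. With bounds the vein median was -0.52 over 137 of the 150 genes, against -0.02 over all 19006 genes with a value, and the intervein median was -0.34 over 129, against 0.08 over 18953. Without vein T2 recovered 2 the vein median with bounds was -0.92 over 130 genes, against -0.03 over all genes. Without intervein T2 recovered 1 the intervein median with bounds was -0.50 over 120 genes, against -0.05. With bounds the list was thus centred below all genes in both tissues with every library kept and without each of these 2 libraries. The T2 watered libraries were not left out with bounds. The fitted vein median without vein T2 watered 3 was 0.05 over the 150 genes, against 0.00 over all tested genes. The fitted intervein median without intervein T2 watered 3 was 0.04, against 0.09. Whether the lower vein centre with bounds depended on a single T2 watered library was therefore not tested. Dividing by total counts alone, with no further scaling, moved the fitted vein median of all genes to -0.34 and that of the 150 genes to -0.50.

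Set against T0, T2 levels showed no call in the 150 genes. T2 recovered against T0 called 0 in vein, where 0% of all genes were called, and 0 in intervein, where 0.0463% were (edgeR). Unadjusted p-values under 0.05 were found for 24 genes (16%) in each tissue. Of all genes they were found for 9.94% in vein and 11.9% in intervein. A filter on the compared libraries alone kept 97 genes in vein and 98 in intervein, so shares over 150 include genes it would drop. In fits of those libraries, 7 of the 97 had an unadjusted p under 0.05, where 850 of all 16704 genes did. In intervein 22 of the 98 did, where 2093 of all 16438 did. Without vein T0 2 the vein count was 12 of the 150, where it was 1543 of all 19953 genes. In vein the higher share therefore depended on that library. DESeq2 called 5 in vein (3.33%), where it called 0.766% of all genes, and 12 in intervein (8%), where it called 2.06%. T2 watered against T0 called 0 in vein, where 0% of all genes were called, and 0 in intervein, where 0.0412% were (edgeR). At an unadjusted p under 0.05 there were 19 genes (12.7%) in vein, where 8.89% of all genes were found. In intervein there were 15 (10%), where 13% were. A filter on the compared libraries alone kept 101 genes in each tissue. In fits of those libraries, 13 of the 101 were found in vein, where 2879 of all 16996 genes were. In intervein 14 were found, where 1916 of all 16171 genes were. Without vein T0 2 the vein count was 31 of the 150, where it was 1455 of all 19953 genes. DESeq2 called 7 in vein (4.67%), where it called 1.2% of all genes, and 4 in intervein (2.67%), where it called 2.64%. The T0 group is the same in both comparisons of a tissue.

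In vein these comparisons turned on the library vein T0 2. The median log2 fold change over the 150 genes was -0.80 for T2 recovered over T0 and -0.47 for T2 watered over T0. Without vein T0 2 the medians were 0.50 and 0.77, and without vein T2 recovered 2 that of T2 recovered over T0 was -1.29. In intervein the medians were -0.06 and 0.00.

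A part of the list was close to silent outside drought. Of the 150 genes, 15 had a mean under 1 CPM in all 6 T0 and T2 groups, and 4 of these had 0 counts in all 18 T0 and T2 libraries. The 4 were Solyc09g098120 (A0A3Q7I933), Solyc04g078440 (A0A3Q7G8W3), Solyc08g006800 (A0A3Q7HK98) and Solyc10g078760 (A0A3Q7JES0), the last of which is the neighbour of LE25. Solyc04g078440 had 76.8, 146 and 46.8 CPM in T1 drought vein and 0, 20.6 and 23.3 CPM in T1 drought intervein. Solyc09g098120 had 48.4, 50.2 and 25.1 CPM in T1 drought vein and 0, 66.2 and 90.1 CPM in T1 drought intervein. Both also had 0 counts in all T1 watered libraries, so every count of these genes in the series came from a drought library.

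At the other end, 27 genes had a mean over 10 CPM in all 6 T0 and T2 groups, among them TAS14 and LE16. By mean CPM over the T0 and T2 watered libraries the 6 highest were TAS14, Solyc03g118470 (A0A3Q7FSG1), Solyc03g026270 (A0A3Q7FF31), Solyc01g095320 (A0A3Q7F5Q4), Solyc03g065250 (A0A3Q7FLL6) and LE16. CPM is not divided by gene length, so this order is one of counts. Solyc01g095320 had 140, 202 and 318 CPM in T2 recovered vein, against 424, 334 and 796 CPM in T2 watered vein, and 560, 86.3 and 86.2 CPM in T2 recovered intervein, against 56.3, 23.7 and 112 CPM in T2 watered intervein. The vein groups were apart and the intervein groups overlapped, and the highest intervein value was that of the library whose tissue score was near vein.

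Solyc03g065250 had 19.1, 61.4 and 52.9 CPM in T2 recovered vein, against 63.5, 87.1 and 119 CPM in T2 watered vein, and 54.7, 45.3 and 61.4 CPM in T2 recovered intervein, against 289, 263 and 416 CPM in T2 watered intervein. Its log2 fold change in intervein was -2.39 (SE 0.66, edgeR adjusted p = 0.0765), short of the threshold. Solyc03g118470 had 445, 59.3 and 679 CPM in T1 drought intervein, against 99.6, 177 and 405 CPM in T0 intervein, so its drought and T0 ranges overlapped. Solyc03g026270 had 144, 433 and 321 CPM in T2 recovered vein, against 138, 155.8 and 301 CPM in T2 watered vein, and these groups overlapped too.

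A few genes did not come down at T2 in recovered plants. In vein, 8 genes had a T2 recovered mean at or above the T1 drought mean, namely Solyc12g017240, Solyc03g026270, Solyc04g015360, Solyc01g087990, Solyc05g052520, Solyc02g094010, Solyc01g079650 and Solyc08g005610. In intervein 2 did, Solyc04g007630 and Solyc01g079650. Without the recovered libraries that went against their tissue label the counts were 5 in vein, 4 of them among these 8, and 0 in intervein. Without vein T1 drought 2 the vein count was 13, and without intervein T1 drought 1 the intervein count was 1. Solyc01g079650 (A0A3Q7EHH4) was in both sets, with 18.6, 422 and 193 CPM in T2 recovered vein, against 101, 192 and 197 CPM in T1 drought vein, and 219, 240 and 13.6 CPM in T2 recovered intervein, against 15.1, 35.3 and 403 CPM in T1 drought intervein. Its ranges overlapped in both tissues. All 8 vein genes also belong to the 27 genes above 10 CPM in every T0 and T2 group.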

How the data were processed

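Per the labels' protocols, stranded mRNA libraries were read as single reads of 75 nt. The submitters' processing notes name HISAT2 2.1.0, StringTie 1.3.3b, DESeq2 1.20.0 and FastQC 0.11.5, with no roles. The genome build is not given in the sources used here, nor is the annotation or the handling of multiply mapped reads. The deposited table holds unnormalized whole-number counts per gene and library, per the file headers. The fold changes the authors deposited for T1 were not used.

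The genes and lists were chosen with earlier results of these data known. Genes named in the text are the 12 with the largest rule values, 3 on each side of the threshold, up to 5 called genes per direction and comparison, the 6 highest in watered T0 and T2 libraries and those whose UniProt entry could be named, with others chosen after their values were seen.

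Levels are counts divided by the column total. Tests used R 4.3.3 and edgeR 4.0.16 on the counts (filterByExpr, TMM factors 0.665 to 1.28, 1 coefficient per group, 20 residual degrees of freedom, two-sided), with DESeq2 1.42.0 as an alternative. The script was tested on simulated data. Rows with ENSRNA identifiers (1167) entered the fit but not the list. Of the 41476 genes in the reference table of assembly SLM_r2.1, 0 could be matched by identifier, so functional lists held 0 genes and promoters were not analysed.

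Same-numbered libraries deviated together by the rule used (every correlation over 0.1) only for T2 recovered and T0 vein, with correlations of 0.205, 0.139 and 0.149. The pairing comes from this check alone, since the labels do not tie numbers across time points.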

Additional observations from a re-analysis of the deposited data

How the results depend on the processing

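The list kept between 108 and 144 of its 150 genes under every alternative to the rule, 108 with a pseudocount of 0.1 and 127 without intervein T1 drought 1 and vein T1 drought 2, an alternative chosen after seeing the data. The 2 calls for recovered against watered vein at T2 became 0 with column totals as the only scaling, 0 without the T2 recovered libraries that went against their tissue label, 0 when only the 6 libraries compared were fitted and 14 with DESeq2 (9.33%, against 7.25% of all genes), and ranged from 0 to 3 when 1 library was left out. The 8 calls between tissues at T0 became 0 with the replicate number as a block in the 6 T0 libraries, where 0 of all 16845 genes were called, and 25 (16.7%) with DESeq2, which called 12.2% of all genes, and ranged from 0 to 3 when 1 library was left out, with 371 to 1376 of all genes called. Where edgeR called 0, DESeq2 called 14 genes for recovered against watered intervein at T2 (9.33%, against 5.85% of all genes), 5 and 12 for T2 recovered against T0 in vein and intervein (3.33% and 8%, against 0.766% and 2.06%), 7 and 4 for T2 watered against T0 (4.67% and 2.67%, against 1.2% and 2.64%), and 2 for the difference of the T2 response between tissues (1.33%, against 0.347%). With the replicate number as a block in the fit of all libraries, the calls were 2 for recovered against watered vein and 6 at T0. In T2 recovered against T0 vein, whose numbers paired, the block left 0 calls, and it changed no other call. Counts of non-overlapping libraries and of group means without vein T1 drought 2, intervein T1 drought 1, vein T0 2 or the recovered libraries were also chosen after seeing the data. The cause of these changes was not tested. No log2 fold change of a called gene changed sign. The smallest library held 2718799 counts, so a level under 1 CPM there rests on at most 2 counts.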
